A study of Homo sapiens with 30 samples.

Results

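The short arm of chromosome 9 was followed through 30 peak lists of the H3K27me3 and H3K27ac histone marks in K562, an established human chronic myeloid leukaemia line. The members were the SEACR peaks with their midpoint in hg19 chr9:1-36000000, a span of 36 Mb that holds the genes CDKN2A (chr9:21967751-21994490), MTAP (chr9:21802635-21865969) and JAK2 (chr9:4985245-5128183). They numbered 1489 of the 587932 peaks on chromosomes 1 to 22 and X, 667 of them in the 5 H3K27me3 lists and 822 in the 25 H3K27ac lists. The span chr9:66000000-133000000 of the long arm, 67 Mb with 13597 peaks, was the comparison.

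CUT&Tag directs a transposase to an antibody bound on chromatin, so that DNA beside the mark is cut, tagged and sequenced, and SEACR calls peaks from the coverage that results. Each library came from 500000 K562 cells, and all used the same line. H3K27me3 was profiled with CST9733 at 1/100, with SDS extraction at 15 PCR cycles and with column or SDS extraction at 13 and at 11 cycles, without TSA. H3K27ac was profiled with Abcam-ab177178, Abcam-ab4729 and Active Motif 39133 at 1/100 and with Diagenode C15410196 at 1/50 or 1/100. The histone deacetylase inhibitor TSA was added to 4 H3K27ac libraries at 15 cycles with SDS extraction (both Abcam antibodies and both Diagenode dilutions), against 5 untreated ones made the same way, which included Active Motif 39133. The other 16 H3K27ac libraries were untreated and came from column or SDS extraction at 13 or 11 cycles, with Diagenode C15410196 at 1/50. For 13 and 11 cycles the reads were thinned to one depth before peak calling, per the labels, and no such step is described for the 10 lists at 15 cycles. Every condition had 1 library. An SD below is therefore a spread over conditions, and a p-value measures only that spread.

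H3K27me3 is laid down by the Polycomb repressive complex PRC2 over silent genes, and H3K27ac marks active promoters and enhancers. CDKN2A encodes the tumour suppressors p16INK4a, an inhibitor of CDK4 and CDK6, and p14ARF, which stabilises p53; it is a classical Polycomb target and is often deleted in cancers. MTAP, its neighbour, encodes the methylthioadenosine phosphorylase of methionine salvage, and JAK2 encodes a tyrosine kinase of cytokine receptors. K562 is known to carry a homozygous deletion of CDKN2A. A peak list holds no reads outside peaks, so DNA that is missing and DNA that carries no called peak cannot be told apart in these values.

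The promoters of the 3 genes are shown because the peaks, or their absence, at these genes carry the results. They are RefSeq sequences of GRCh38.p14, from 250 bases before to 50 bases after the start, with GGGCGG, the core of the GC box, or its reverse complement CCGCCC in capitals.
CDKN2A promoter at the p16INK4a start, chr9:21974808-21975107, minus strand: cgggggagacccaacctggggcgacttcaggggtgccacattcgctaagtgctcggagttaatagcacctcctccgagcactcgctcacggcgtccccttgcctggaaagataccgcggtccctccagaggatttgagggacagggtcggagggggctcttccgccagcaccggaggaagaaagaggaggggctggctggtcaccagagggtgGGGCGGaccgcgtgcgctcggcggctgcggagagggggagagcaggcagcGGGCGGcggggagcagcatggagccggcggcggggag
CDKN2A promoter at the p14ARF start, chr9:21995275-21995574, minus strand: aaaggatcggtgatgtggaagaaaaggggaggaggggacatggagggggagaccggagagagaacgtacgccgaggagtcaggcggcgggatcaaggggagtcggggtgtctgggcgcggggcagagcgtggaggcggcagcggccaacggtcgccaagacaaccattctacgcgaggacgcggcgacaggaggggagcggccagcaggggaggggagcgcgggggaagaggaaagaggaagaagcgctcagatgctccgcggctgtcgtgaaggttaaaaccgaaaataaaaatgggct
MTAP promoter, chr9:21802386-21802685, plus strand: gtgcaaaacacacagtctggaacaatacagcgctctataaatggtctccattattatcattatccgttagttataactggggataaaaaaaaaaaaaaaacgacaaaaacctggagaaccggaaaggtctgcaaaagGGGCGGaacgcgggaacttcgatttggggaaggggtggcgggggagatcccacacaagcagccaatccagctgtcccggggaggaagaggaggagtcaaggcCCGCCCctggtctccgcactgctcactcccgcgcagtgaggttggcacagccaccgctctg
JAK2 promoter, chr9:4984836-4985135, plus strand: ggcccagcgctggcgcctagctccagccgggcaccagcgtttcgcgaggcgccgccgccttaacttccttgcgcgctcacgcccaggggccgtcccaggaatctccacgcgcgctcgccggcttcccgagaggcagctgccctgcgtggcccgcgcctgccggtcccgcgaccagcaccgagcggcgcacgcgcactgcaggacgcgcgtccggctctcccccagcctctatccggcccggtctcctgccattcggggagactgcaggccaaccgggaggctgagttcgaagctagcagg
The JAK2 promoter, the one with most CpG among the 4 listed for that gene, held 39 CpG in its 300 bases. The p14ARF and p16INK4a promoters held 28 and 26, the MTAP promoter 15, and the median of 35114 promoters in the table was 14. The motif, searched on both strands, occurred 2 times in the p16INK4a and 2 times in the MTAP promoter and did not occur in the other two windows; 45.0% of all promoters in the table held it. Their build differs from that of the peaks, so these positions were not set against peak positions.

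No peak of either mark overlapped CDKN2A or MTAP in any of the 30 SEACR lists, nor in the MACS2 lists that exist for 6 of the libraries. Both genes lay inside chr9:20685295-26625199, 5.94 Mb without a SEACR peak in any list. It was the longest such span of the short arm and the 5th longest on chromosomes 1 to 22 and X. At the mean density of the long arm, a span of this length would hold 158 H3K27me3 peaks and 16.6 H3K27ac peaks per list. Among the H3K27me3 lists the nearest peak was at least 2533 kb to the left of CDKN2A (median 3007 kb) and at least 4631 kb to its right. Among the H3K27ac lists it was at least 1282 kb to the left (median 2737 kb) and at least 4894 kb to the right. In gene order (RefSeq, GRCh38.p14), CDKN2A stands between MTAP and CDKN2B, a further CDK inhibitor gene. The next protein-coding genes are the interferon genes IFNE, IFNA1 and IFNA8 beyond MTAP, and DMRTA1 and ELAVL2 beyond CDKN2B.

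The 2 edges of the CDKN2A span differed in support. On its left, chr9:20683334-20685294 had a peak in 7 H3K27ac lists, with a percentile of total signal within a list of up to 64.7. On its right stood one 391 bp H3K27me3 peak, chr9:26625200-26625590, at percentile 7.76 of its list (column extraction, 13 cycles). From the H3K27me3 lists alone the span was 7.19 Mb, chr9:19434416-26625199. From the H3K27ac lists alone it was 6.20 Mb, chr9:20685295-26888544. Counting a peak only where at least 2 lists had one gave 6.26 Mb. A span free of peaks in all 30 lists is free in any part of them. These lengths could thus only equal or exceed 5.94 Mb, and are no separate support from each mark.

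**Figure D1:**
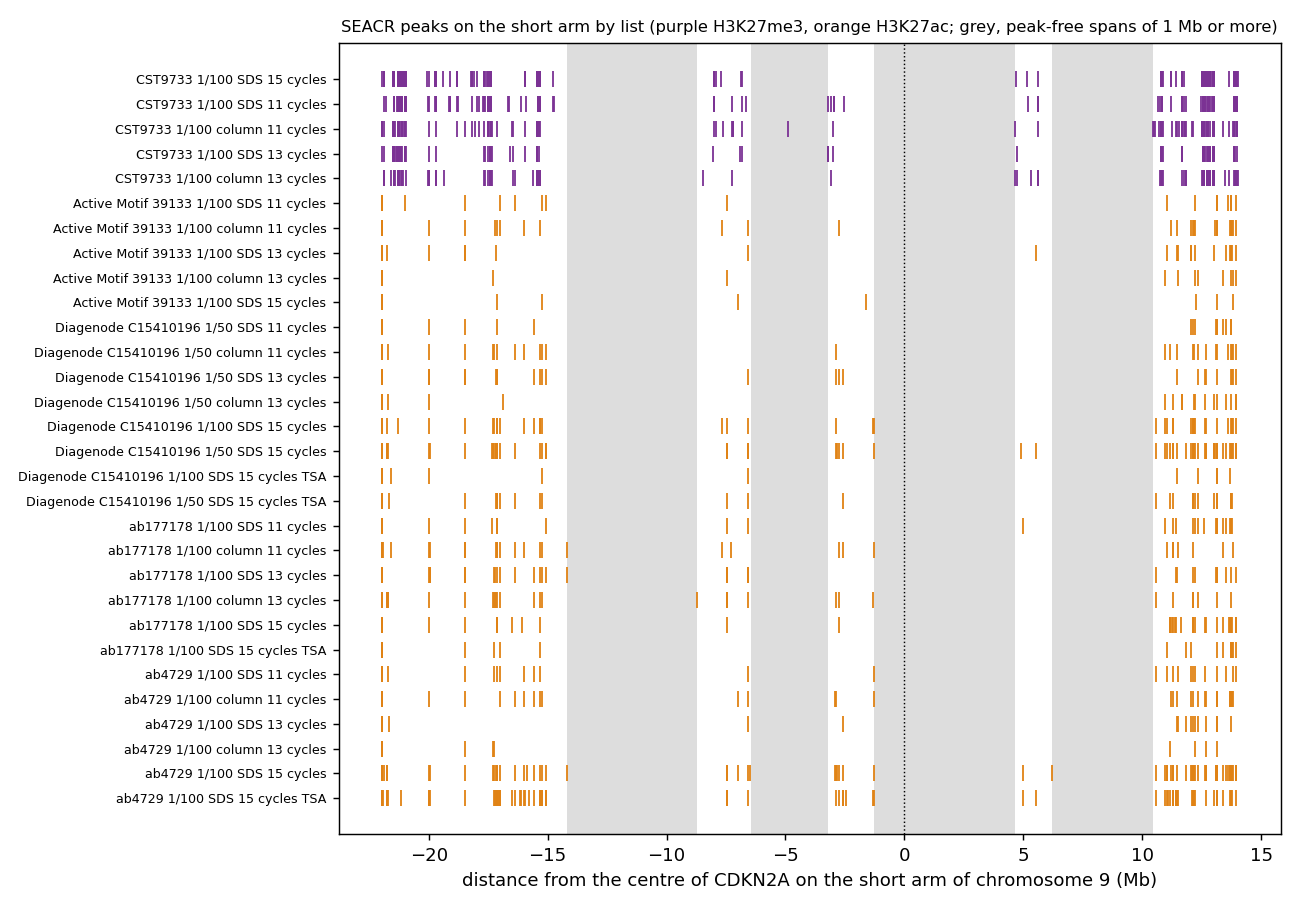
SEACR peaks of each of the 30 lists along the short arm, as distance in Mb from the centre of CDKN2A. Each row is a list, each tick a peak, and grey bands are the peak-free spans of at least 1 Mb, with shorter ones not shaded. The rows are empty about 0 in every list, while the far left and far right carry peaks of both marks.

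CDKN2A was not the only gap of this size on the arm. Spans of at least 100 kb without a peak in any list numbered 47 on the short arm and took up 29.0 Mb, or 80.6% of it. The long arm had 96 that took up 30.1 Mb, or 44.9%, and chromosomes 1 to 22 and X had 3917 that took up 51.5%. Spans of at least 1 Mb numbered 5 on the short arm, with 18.9 Mb or 52.5% of its length, against 6 on the long arm with 11.5 Mb or 17.1%. The short arm held 3 of the 11 spans of at least 4 Mb on chromosomes 1 to 22 and X, and the long-arm span held 0 of them, with a longest of 3.30 Mb. This list of 11 includes spans at centromeres, which were not removed.

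The second longest short-arm gap was chr9:7800435-13278009, 5.48 Mb and 7th of all, followed by chr9:28189723-32413275, 4.22 Mb and 10th. At the long-arm density they would hold 146 and 112 H3K27me3 peaks per list. The other two spans over 1 Mb were chr9:17073608-18776061 with 1.70 Mb and chr9:15511964-17072947 with 1.56 Mb. They were divided by a single 660 bp H3K27me3 peak at percentile 4.26 of its list (column extraction, 11 cycles). The next longest, chr9:1050941-1916662, measured 0.866 Mb. Of the 10 edges of the 5 longest spans, 8 rested on a peak of 1 list. With peaks counted only where at least 2 lists had one, the spans of at least 1 Mb covered 22.2 Mb of the short arm (61.5%) and 14.9 Mb of the long arm (22.2%).

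**Figure D2:**
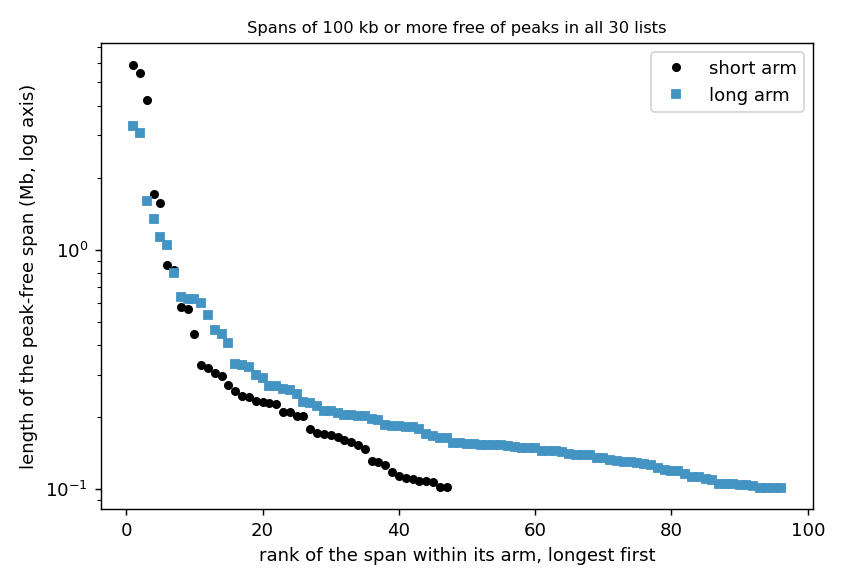
Length in Mb (log axis) of each span of at least 100 kb without a peak in any of the 30 lists, against its rank within the short or the long arm. The 3 longest short-arm spans lie above 4 Mb, and no long-arm span exceeds 3.30 Mb.

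MACS2, the second caller, placed 6 peaks inside the 5 longest spans, all of them in the untreated Abcam-ab4729 list at 15 cycles and none in the other 5 MACS2 lists. One lay in the CDKN2A span, chr9:22354216-22354615, a 400 bp peak 359.7 kb to the right of the gene with a deposited -log10 q of 33.7. Others were chr9:17290344-17290606 with a -log10 q of 37.4 and chr9:13037885-13038483 with 23.1. These spans were thus free of SEACR peaks, and not of every MACS2 peak.

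Peaks were spread unevenly along the arm. Of the 36 bins of 1 Mb, 14 (38.9%) had no peak in any list, against 4 of 67 long-arm bins (5.97%) and a background of 10.6% over 2967 bins of chromosomes 1 to 22 and X. For H3K27me3 alone 16 short-arm and 6 long-arm bins were empty, with a background of 19.1%. For H3K27ac alone 17 short-arm and 7 long-arm bins were empty, with a background of 14.2%. The short-arm share was above the background for both marks, and the long-arm share was below it for both.

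The middle of the arm was the emptiest. Its limits, 7 and 32 Mb, were chosen after the peaks were seen. From 7 to 32 Mb, the H3K27me3 lists had 7 to 16 peaks each, 52 in all or 7.80% of the short-arm peaks in 25 of its 36 Mb. Their density there was 0.0166 ± 0.0081 of that on their own long arm (SD, n = 5 lists). The H3K27ac lists had 0 to 15 peaks each with a median of 2, 98 in all, and a density of 0.049 ± 0.037 of their long arm (SD, n = 25 lists). Of 48 merged H3K27me3 regions in this stretch, 44 (91.7%) came from 1 list and none from more than 2. On the whole short arm that share was 70.0%, and on the long arm 55.1%. Of 30 merged H3K27ac regions, 14 (46.7%) came from 1 list, near the shares of the whole short arm (43.5%) and the long arm (45.9%). The most widely shared, chr9:15420982-15424231, was in 15 lists.

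The flanks carried the rest. In the first 1 Mb the H3K27me3 density was 0.913 ± 0.179 of the long arm, and the H3K27ac density was 2.84 ± 1.14 times the long arm, above it in 24 of 25 lists. Many of these H3K27ac peaks were pieces of 1 region near the chromosome end, chr9:17561-40441, which had peaks in all 25 H3K27ac lists. Each piece was counted as a peak, so the ratio does not describe the whole 1 Mb. From 1 to 7 Mb the H3K27me3 ratio was 0.210 ± 0.083 and the H3K27ac ratio was 0.466 ± 0.228. From 32 to 36 Mb the H3K27me3 ratio was 0.618 ± 0.139 and the H3K27ac ratio was 1.29 ± 0.52, with 326 and 349 peaks. The single bin chr9:34000001-35000000 held 211 H3K27me3 peaks, 32 to 58 per list. Its density was above the list's own long-arm density in 5 of 5 H3K27me3 lists, the only short-arm bin of which that was true. The next bin, chr9:35000001-36000000, had the second most H3K27ac peaks of the arm, 160, after the 169 of the first 1 Mb.

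**Figure D3:**
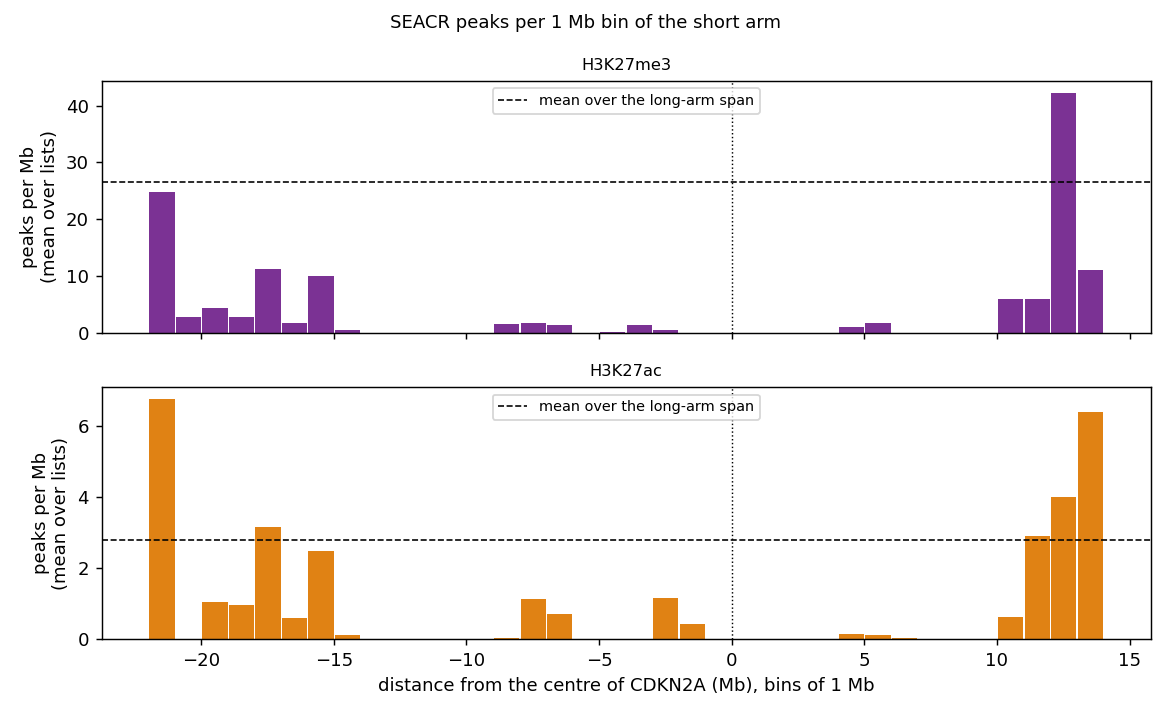
SEACR peaks per list in each 1 Mb bin of the short arm, H3K27me3 above and H3K27ac below, by distance from the centre of CDKN2A; dashed lines give the mean density of the long-arm span. Bins about 0 are empty, and the tallest H3K27me3 bin, with 42.2 peaks per list, exceeds the line.

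Over the whole arm, H3K27me3 peaks were sparser than on the long arm in every list. The 5 lists had 190 (SDS, 15 cycles), 109 (column, 13 cycles), 101 (SDS, 13 cycles), 140 (column, 11 cycles) and 127 (SDS, 11 cycles) short-arm peaks. Against these stood 2468, 1603, 1839, 1563 and 1440 long-arm peaks in the same order. The highest short-arm density, 5.28 peaks per Mb, lay below the lowest long-arm density, 21.5 per Mb, so the 2 sets did not overlap. The mean was 3.71 ± 0.98 peaks per Mb on the short arm and 26.6 ± 6.11 on the long arm (SD, n = 5 lists). The mean log2 ratio of short over long arm was -2.85 ± 0.29, with a two-sided exact sign-flip permutation p of 0.063 and an adjusted p of 0.13. With 5 lists 0.063 is the smallest p possible, so this design cannot pass a threshold of 0.05.

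H3K27ac was also sparser, with 11 to 95 short-arm peaks per list and a median of 32. Abcam-ab4729 lists ran from 11 to 95, Diagenode C15410196 lists from 14 to 65, Abcam-ab177178 lists from 20 to 38 and Active Motif 39133 lists from 12 to 32. The mean was 0.913 ± 0.538 peaks per Mb on the short arm and 2.80 ± 1.60 on the long arm (SD, n = 25 lists), lower on the short arm in 25 of 25 lists. The ratio ran from 0.163 to 0.485 with a median of 0.338. The mean log2 ratio was -1.60 ± 0.39, with a two-sided sign-flip permutation p of 1e-05, the smallest that 100000 resamples can give, and an adjusted p of 4.2e-05 over 6 tests. With the mean of each of the 4 antibodies as the unit, the value was -1.62 and the exact permutation p 0.13, the smallest that 4 units allow. Leaving out the length of the 5 longest short-arm gaps gave -1.77 for H3K27me3 and -0.53 for H3K27ac. The mean density outside these gaps was thus also below the long arm, which kept its own 11.5 Mb in gaps of at least 1 Mb. For H3K27ac this mean was uneven, with a ratio of 0.466 from 1 to 7 Mb, 2.84 in the first 1 Mb and 1.29 from 32 to 36 Mb.

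The short arm was more depleted of H3K27me3 than of H3K27ac. The ratio averaged 0.141 ± 0.027 in H3K27me3 lists (n = 5) and 0.335 ± 0.082 in H3K27ac lists (n = 25, SD). The H3K27me3 ratios, 0.102 to 0.167, overlapped those of H3K27ac only at its lowest list, untreated Abcam-ab177178 at 15 cycles with 0.163. The difference of the mean log2 ratios was -1.24, with a two-sided exact permutation p of 1.4e-05 and an adjusted p of 4.2e-05. This permutation treated lists that share an antibody as separate units. All 5 H3K27me3 lists came from 1 antibody, so mark and antibody cannot be told apart. The share of a list that fell on the short arm was 0.130 to 0.195% for H3K27me3 and 0.229 to 0.562% for H3K27ac. Among the H3K27ac antibodies, the ratio averaged 0.258 ± 0.063 for Abcam-ab177178 (n = 6), 0.332 ± 0.090 for Abcam-ab4729 (n = 6), 0.343 ± 0.025 for Active Motif 39133 (n = 5) and 0.389 ± 0.075 for Diagenode C15410196 (n = 8). These ranges overlapped, and differences between antibodies were not tested.

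**Figure D4:**
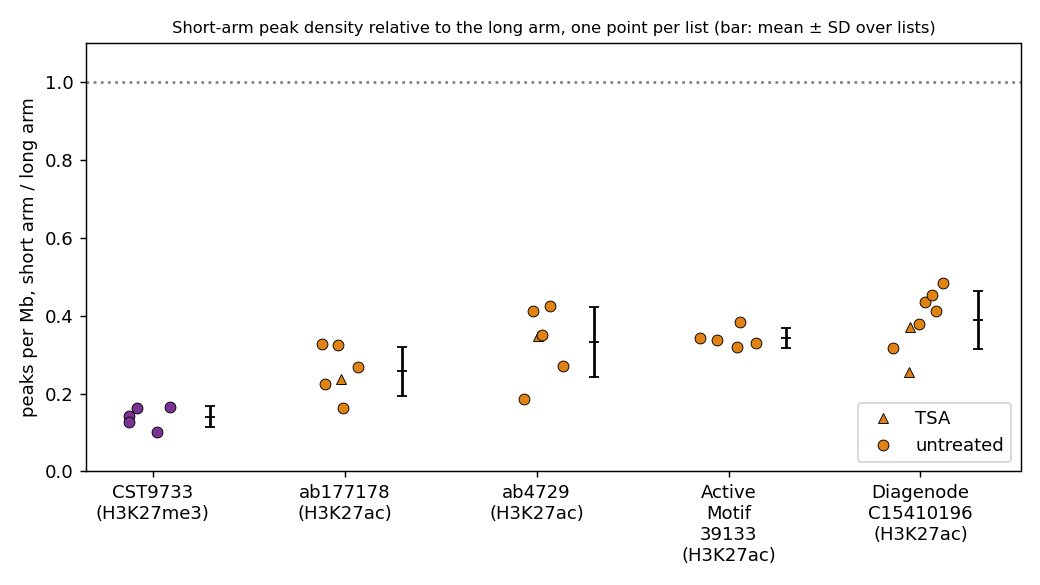
Peaks per Mb on the short arm over peaks per Mb on the long arm, a point per list, for H3K27me3 and for the 4 H3K27ac antibodies, with mean and SD bars; the dotted line at 1 is equal density. All 30 points lie below 1, the 5 of H3K27me3 between 0.102 and 0.167.

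One H3K27me3 list stood apart in what its peaks shared with H3K27ac. Of the peaks of the 16 downsampled H3K27ac lists, a median of 20.4% overlapped a peak of the H3K27me3 column list at 11 cycles, against 4.64 to 9.91% for the other 4 H3K27me3 lists. On the short arm it overlapped 100 of 430 of those H3K27ac peaks (23.3%), and the other 4 lists overlapped 1 to 11 of 430. Without it the mean H3K27me3 log2 ratio was -2.92, the CDKN2A span had the same bounds, and 49 spans took up 29.5 Mb. This list alone supplied the 660 bp peak between the spans of 1.70 and 1.56 Mb, which join without it. It alone also supplied the right edge of the 4.22 Mb span.

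Regions that recurred in all H3K27me3 lists lay mostly from 32 to 36 Mb. Peaks of the 5 lists merged into 377 short-arm regions, of which 15 (3.98%) were in all 5 lists and 264 (70.0%) in 1. On the long arm 326 of 3548 (9.19%) were in all 5 lists and 1955 (55.1%) in 1. Of the 15 short-arm regions in all 5 lists, 11 lay from 32 to 36 Mb, 3 in the first 1 Mb, 1 from 1 to 7 Mb and none from 7 to 32 Mb. The shares of all short-arm H3K27me3 peaks in these segments were 48.9, 18.6, 24.7 and 7.80% in the same order. A difference from these shares was not tested. The strongest by mean rank of total signal within a list was chr9:34547779-34561142, 13364 bp wide, with a mean percentile of 95.5. Next came chr9:34570453-34577785, 7333 bp wide, with 95.3, and chr9:34723111-34726133 with 84.2. Of the 10 strongest, 6 lay in chr9:34517526-34588304. Genes are not named for these regions, because the annotation used here is of another build.

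Recurrent H3K27ac regions, like the H3K27ac peaks of the arm as a whole, lay mostly outside 7 to 32 Mb. Of 147 merged short-arm regions, 1 (0.68%) was in all 25 lists, against 13 of 827 (1.57%) on the long arm. The short-arm one was chr9:17561-40441, 22881 bp wide, with a mean percentile of 96.9 and a lowest of 91.2. Another 3 short-arm regions were in all 5 untreated lists at 15 cycles: chr9:10001-11546, chr9:35107980-35113264 and chr9:4850412-4857276. In the full set of 25 lists these 3 had peaks in 17, 20 and 16. Peaks of 3, 0 and 1 of the 5 H3K27me3 lists overlapped them in the same order, and a peak of 1 H3K27me3 list overlapped chr9:17561-40441. The region chr9:3524159-3529934 was in 20 lists with a mean percentile of 78.6. Of the 14 regions in at least 13 lists, 2 lay in the first 1 Mb, 6 from 1 to 7 Mb, 1 from 7 to 32 Mb and 5 from 32 to 36 Mb. The shares of all short-arm H3K27ac peaks in these segments were 20.6, 25.1, 11.9 and 42.5% in the same order. A difference from these shares was not tested.

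JAK2 was the one of the 3 genes with peaks. No H3K27me3 list had a peak in it. The nearest, 129.3 kb to the left, was in the column list at 11 cycles only. In the other 4 H3K27me3 lists the nearest peak on the left was 347 to 364 kb away. An H3K27ac peak overlapped the gene in 12 of 25 lists. The region chr9:4983356-4986449, 3094 bp that begin 1889 bp before the gene's interval and cover its start, was found in 13 H3K27ac lists. These were 4 of 6 Abcam-ab177178, 4 of 6 Abcam-ab4729, 3 of 8 Diagenode C15410196 and 2 of 5 Active Motif 39133 lists, so each antibody had it in some lists. The percentile of its total signal reached 86.8, with a median of 58.0. MACS2 called it in 3 of 5 untreated H3K27ac libraries, with a -log10 q of 30.1 for Abcam-ab4729, 16.8 for Diagenode C15410196 at 1/50 and 14.8 at 1/100. A second region, chr9:5094382-5094550, was a 169 bp peak in 1 list. JAK2 thus carried H3K27ac at its start in lists in which CDKN2A and MTAP had no peak.

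The 4 pairs with and without TSA did not move in one direction. Short over long ratios with TSA and without were 0.239 and 0.163 for Abcam-ab177178, 0.349 and 0.412 for Abcam-ab4729, 0.255 and 0.485 for Diagenode C15410196 at 1/100, and 0.372 and 0.435 at 1/50. The peaks behind them were 20 and 38, 95 and 72, 14 and 44, and 32 and 65. The log2 ratio was lower with TSA in 3 of 4 pairs, by a mean of -0.20 ± 0.60 (SD), with an exact permutation p of 0.625, adjusted 0.625. The smallest p that 4 pairs allow is 0.13. Without the Diagenode 1/100 pair the mean difference was 0.035.

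Extraction and cycle number were compared in 10 pairs each of the downsampled lists, 2 of them H3K27me3. Column minus SDS gave a mean log2 difference of 0.076 ± 0.29 (SD, n = 10), higher in 6 of 10 pairs, with an exact permutation p of 0.422, adjusted 0.506. Lists at 13 minus 11 cycles gave -0.21 ± 0.49 (SD, n = 10), lower in 7 of 10 pairs, with an exact permutation p of 0.203, adjusted 0.305. The widest cycle pair was Abcam-ab4729 with column extraction, 11 peaks and a ratio of 0.186 at 13 cycles against 34 peaks and 0.425 at 11 cycles. Without the Abcam-ab177178 pairs the cycle difference was -0.36, with an exact permutation p of 0.0234 and an adjusted p of 0.0468, within a range of 0.0468 to 0.625 over its alternatives that kept the sign.

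**Figure D5:**
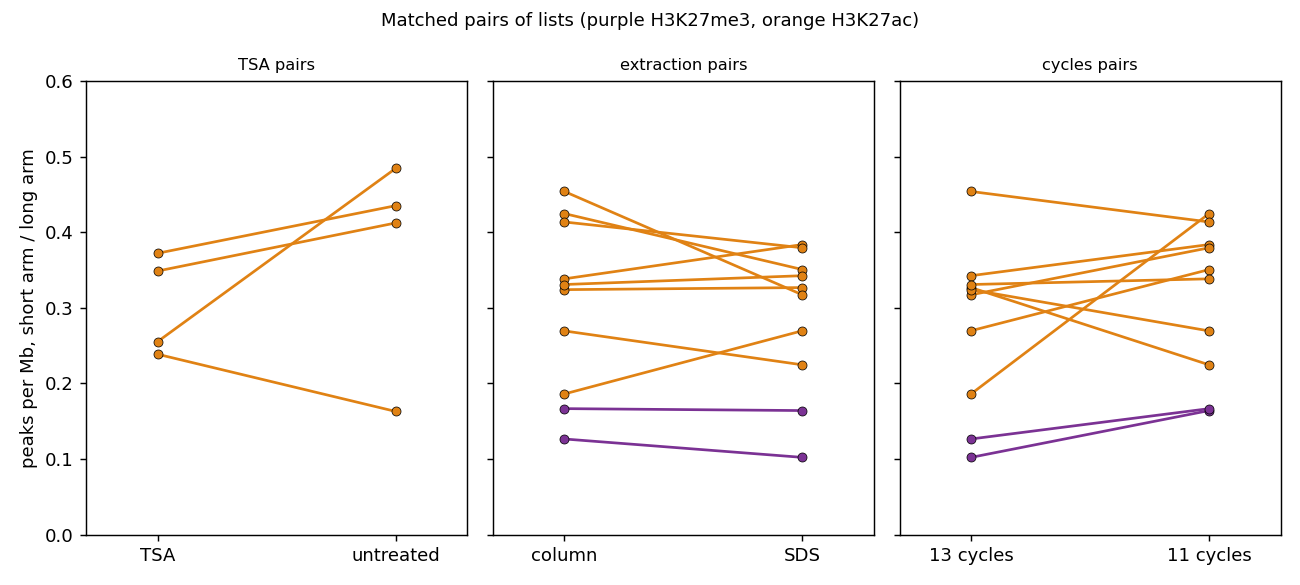
Short over long arm ratio of paired lists joined by lines: TSA and untreated, column and SDS extraction, and 13 and 11 cycles, with H3K27me3 in purple and H3K27ac in orange. Lines run both ways in each panel, and the H3K27me3 points stay at or below 0.167.

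Among 72 windows of 36 Mb laid along chromosomes 1 to 22 and X, the short arm of chromosome 9 had the second lowest H3K27me3 density, 3.71 peaks per Mb and list against a median of 19.96. The lowest, chr3:72000001-108000000, had 1.36. Its H3K27ac density of 0.913 was the 10th lowest, against a median of 2.01. Its 18.9 Mb in gaps of at least 1 Mb was the 5th highest, against a median of 7.81 Mb. For each mark at least 1 window on another chromosome was thus sparser. Densities were taken over the full 36 Mb, with centromeres and assembly gaps not removed. These ranks therefore do not separate missing sequence from missing peaks.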

How the data were processed

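CUT&Tag peak lists of 30 K562 libraries were used as deposited. The deposited SEACR lists give total and maximum signal per peak. The deposited MACS2 lists of 6 untreated libraries hold for each peak -log10 values of p and q, the fold enrichment (a ratio) and a score, and their peak names carry a q of 0.00001. Duplicates were removed, and reads were thinned to one depth at 11 and 13 cycles, per the labels. The build is hg19, and the submitters' processing notes name bedtools 2.25.0, SAMtools 1.3.1, Picard 2.6.0, Bowtie2 2.2.9, Trim Galore 0.6.6, bcl2fastq, SEACR and MACS2. Settings of SEACR and sequencing depth: not given in the sources used here. Lists held 3024 to 106997 peaks.

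Peaks were assigned by midpoint. The value per list was log2 of the short-arm over the long-arm number per Mb, with 0.5 added to each number of peaks. Means were tested by sign-flip permutation (exact below 20 values, otherwise 100000 resamples) and the marks by exact label permutation, with Benjamini-Hochberg adjustment over 6 tests at a threshold of 0.05. Peak-free spans were at least 100 kb long, regions were overlapping peaks merged, and total signal was ranked within a list. Named regions were the 10 of highest mean rank in all 5 H3K27me3 lists, in all 5 untreated H3K27ac lists at 15 cycles and in all 25 H3K27ac lists, and the 10 longest spans. The procedure was tested on simulated data. The members and lists were chosen with earlier results of these data known. No hg19 genome or annotation was used, so assembly gaps and cell type markers were not checked. Computation used scipy 1.17.1, pandas 2.3.3, numpy 2.4.6, matplotlib 3.10.9 and Python 3.11.15. Alternatives covered peak strength, merging, covered length, span limits, caller and lists left out.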

Additional observations from a re-analysis of the deposited data

Results flagged for a closer look

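The short-arm depletion differed between the marks: the mean log2 ratio of short over long arm was -2.85 in the H3K27me3 lists and -1.60 in the H3K27ac lists, a difference of -1.24 by the exact permutation test of the list labels (p = 1.4e-05, adjusted 4.2e-05). All H3K27me3 lists came from 1 antibody, and each held more peaks than any H3K27ac list, with 65283 as the fewest against 22808 as the most. The part of the number of peaks in this difference was not tested.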

How the results depend on the processing

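The mark difference kept its direction and its side of the threshold in every alternative run, from -1.61 to -0.95. None of these took the antibody as the unit. That would set 1 H3K27me3 antibody against 4 H3K27ac antibodies, too few for a p below the threshold. Leaving out short-arm bins that overlap a peak-free span dropped 35 of 36 bins and left 1, chr9:1-1000000. On that bin the H3K27ac log2 ratio reversed to 1.48, the TSA difference to 1.01, the extraction difference to -0.069 and the cycle difference to 0.039. The H3K27me3 ratio on it was -0.12. Many H3K27ac peaks of that bin were pieces of the region chr9:17561-40441, found in all 25 H3K27ac lists. H3K27ac no longer passed the threshold with MACS2 lists (-1.47, exact permutation p = 0.063) or with the mean per antibody (-1.62, p = 0.13), the smallest p that each design allows. The TSA difference was 0.21 with only the peaks above the median total signal and ranged from -0.45 to 0.035 with each pair left out. The cycle difference passed the threshold without Abcam-ab177178 (-0.36). The H3K27me3 ratio ranged from -2.92 to -2.74 with each list left out. The 47 spans became 83 at a minimum of 50 kb, with 31.4 Mb, and 26 at 200 kb, with 26.2 Mb. Over all alternatives for the spans the summed length ran from 26.2 to 33.3 Mb, the highest with the 25 H3K27ac lists alone. The 14 empty bins became 32 at 500 kb and 5 at 2 Mb. Causes were not tested beyond these constructions. The alternatives that leave out the long gaps, an antibody in the mark difference, overlapping H3K27ac peaks or the H3K27me3 column list at 11 cycles were chosen after seeing the data. Depth is unknown, so a span without peaks limits called peaks and not reads. The TSA, extraction and cycle differences were paired by antibody and condition; pairing by replicate number could not be tried, because every condition has 1 library.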

Other observations

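Short-arm peaks ranked lower in their lists than long-arm peaks. The median percentile of total signal averaged 36.2 on the short arm and 48.4 on the long arm for H3K27me3, lower in 5 of 5 lists, and 43.7 and 50.2 for H3K27ac, lower in 20 of 25 lists. Median widths averaged 648.3 and 683.8 bp for H3K27me3 and 1141 and 1153 bp for H3K27ac. Of the H3K27ac peaks, 21 of 822 on the short arm (2.55%) and 413 of 4684 on the long arm (8.82%) overlapped a peak of the H3K27me3 list at 15 cycles. On the short arm each H3K27ac list had 0 to 2 such overlaps. The H3K27me3 list at 15 cycles had a peak in chr9:10001-11546, a region with peaks in 17 H3K27ac lists. Many of the 21 overlaps were thus the same region counted once per list. That H3K27me3 list also had fewer peaks to overlap on the short arm, 190 against 2468 on the long arm. These values were not tested.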
